A study of Homo sapiens with 12 samples.

Results

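The genes described here make cholesterol and fatty acids or regulate that synthesis. They were chosen as a list of 34 gene symbols, and all 34 were found by symbol among the 26535 features of the deposited count table. The list holds 18 enzymes of the mevalonate and sterol route, 4 regulators or carriers (SREBF1, SREBF2, INSIG1 and STARD4) and 12 genes of fatty acid synthesis, desaturation, elongation, activation and the step into glycerolipids. All 34 passed the filter on low counts. The lowest raw count of any of them in any library was 317, for TM7SF2.

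The libraries came from H1299 and A549, established human non-small-cell lung cancer lines, of which A549 is a lung adenocarcinoma line. Each line carried either a lentivirus that overexpresses VGF or the empty lentivirus. The VGF gene encodes a secreted neuroendocrine precursor. The 4 groups were H1299 with VGF, H1299 with empty vector, A549 with VGF and A549 with empty vector, with 3 libraries each, which the design text calls biologically independent. Both control groups had therefore also received a lentivirus. H1299 was grown in RPMI-1640 and A549 in DMEM/F12, both with fetal bovine serum, so the line and its medium cannot be told apart. The labels name no promoter for the VGF insert and do not say whether a group was 1 clone or a pool. The free-text treatment note speaks of the empty vector for every library, and groups were taken from the titles.

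Cholesterol synthesis starts from cytosolic acetyl-CoA, which is condensed to HMG-CoA, reduced to mevalonate and built up through isoprenoid phosphates to squalene. Squalene is closed to lanosterol, and a series of demethylations, reductions and isomerisations turns lanosterol into cholesterol. Fatty acid synthesis draws on the same acetyl-CoA, through malonyl-CoA and the fatty acid synthase, and its products are then desaturated, elongated and activated. Transcription of both routes is driven by the SREBP factors, membrane-bound precursors that INSIG proteins hold in the endoplasmic reticulum while sterols are plentiful. Tumour cells often run both routes at a high rate to build membranes.

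SREBP factors act on promoters together with NF-Y and Sp1, so promoter windows were searched for their textbook sites. RefSeq windows (GRCh38.p14) of 300 bases, 250 before and 50 after the annotated start, were at hand for 30 of the 34 genes. A single window was used for each gene, so any other start of a gene was not searched. A window without a match therefore does not show that the gene lacks such sites. The windows of 4 genes are printed because the results below turn on them: HMGCS1 and SCD passed the test for an effect of VGF in A549, and the neighbouring desaturase genes FADS1 and FADS2 differed widely between the lines. Capitals mark matches on either strand, CCAAT (read as ATTGG on the other strand) for NF-Y and GGGCGG (read as CCGCCC) for Sp1.
HMGCS1, chr5:43313363-43313662, minus strand: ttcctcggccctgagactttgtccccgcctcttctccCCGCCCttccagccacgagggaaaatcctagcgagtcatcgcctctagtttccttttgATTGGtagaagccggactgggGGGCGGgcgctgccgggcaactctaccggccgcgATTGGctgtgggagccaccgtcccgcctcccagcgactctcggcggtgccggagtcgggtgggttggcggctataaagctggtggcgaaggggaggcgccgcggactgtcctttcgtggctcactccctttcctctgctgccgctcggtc
SCD, chr10:100346983-100347282, plus strand: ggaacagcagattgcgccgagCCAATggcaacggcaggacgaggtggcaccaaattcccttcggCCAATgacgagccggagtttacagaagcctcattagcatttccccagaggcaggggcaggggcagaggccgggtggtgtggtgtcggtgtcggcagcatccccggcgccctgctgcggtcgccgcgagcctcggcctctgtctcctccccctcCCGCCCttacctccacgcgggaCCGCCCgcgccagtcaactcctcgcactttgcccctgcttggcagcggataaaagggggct
FADS1, chr11:61816954-61817253, minus strand: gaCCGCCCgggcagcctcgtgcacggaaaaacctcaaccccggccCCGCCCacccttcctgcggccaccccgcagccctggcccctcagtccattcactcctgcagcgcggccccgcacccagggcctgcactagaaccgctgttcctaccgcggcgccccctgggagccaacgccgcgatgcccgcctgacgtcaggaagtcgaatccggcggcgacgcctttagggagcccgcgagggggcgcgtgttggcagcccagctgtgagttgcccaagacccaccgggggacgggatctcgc
FADS2, chr11:61815953-61816252, plus strand: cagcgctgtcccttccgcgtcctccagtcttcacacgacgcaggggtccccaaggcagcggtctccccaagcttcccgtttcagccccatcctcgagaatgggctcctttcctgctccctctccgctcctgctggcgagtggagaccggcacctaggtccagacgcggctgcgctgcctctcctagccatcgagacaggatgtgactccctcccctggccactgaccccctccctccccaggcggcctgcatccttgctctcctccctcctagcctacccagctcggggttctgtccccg
The HMGCS1 and SCD windows each held 2 CCAAT and 2 GGGCGG matches, the FADS1 window held 2 GGGCGG matches, and the FADS2 window held no match to any motif searched. CCAAT was found in 20 of the 30 windows (66.7%) and in 35.7% of all 27305 RefSeq promoter windows. GGGCGG was found in 27 of the 30 (90%) and in 44.6% of all windows. The sterol regulatory element core TCACNCCAC was found in 1 of the 30, that of SREBF2, and in 1.15% of all windows. The E-box CACGTG was found in 4 of the 30, those of LSS, SC5D, INSIG1 and ELOVL5, and in 7.43% of all windows. The motifs were searched on both strands and share no letters with each other at the matches shown.

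Library totals ran from 31378171 to 41919484 counts. VGF itself had 35974 to 47251 counts in the H1299 VGF libraries, against 3465 to 3989 in the H1299 empty vector libraries, and 39803 to 46973 counts in A549 with VGF, against 67 to 94 in A549 with empty vector. Its log2 fold change was 3.52 in H1299 (SE 0.0980, adjusted p = 1.12e-09) and 9.04 in A549 (SE 0.137, adjusted p = 6.1e-13). 1 library stood apart: the 15 endothelial markers summed to 569 CPM (counts scaled to library size, as described under processing) in library 2 of A549 with VGF, against 86.6 and 93.7 CPM in libraries 1 and 3 of that group and 76.7 to 88.4 CPM in A549 with empty vector. The calls of all 34 genes for VGF in A549, for the difference between the VGF effects and for H1299 over A549 with VGF were the same without that library.

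Marker sums of other cell types also moved with VGF in A549. The 5 epithelial markers summed to 6268 to 7593 CPM in A549 with VGF, against 5705 to 6186 CPM with empty vector. The 5 hepatocyte markers summed to 3.86 to 5.90 CPM with VGF, against 9.87 to 15.3 CPM with empty vector, with APOA2 at 0 counts. The 6 immune markers summed to 66.5 to 73.5 CPM with VGF, against 84.6 to 94.2 CPM with empty vector, with CD3E at 0. The 5 adipocyte markers summed to 7.82 to 11.7 CPM with VGF, against 12.4 to 15.5 CPM with empty vector, with ADIPOQ and LEP at 0. These 4 sums did not overlap between the A549 groups, while that of the 6 fibroblast markers did, and their part in the A549 results below was not tested. In H1299 the hepatocyte sum alone stood apart, at 6.68 to 8.54 CPM with VGF, against 8.76 to 11.2 CPM with empty vector. The H1299 epithelial sum was 1078 to 1164 CPM with VGF, against 1012 to 1097 CPM with empty vector, and CDH1 had 0 counts in all H1299 libraries.

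In A549, HMGCS1 was called higher and SCD lower with VGF than with empty vector, and none of the other 32 genes passed the test. Of all 18228 features tested, 74 (0.406%) were called higher and 70 (0.384%) lower, or 0.79% in either direction, with edgeR's quasi-likelihood test at an adjusted p under 0.05. Both changes were small, 1.28-fold higher for HMGCS1 and 1.19-fold lower for SCD. No gene of the list moved beyond 1.5-fold, since the 95% confidence intervals of all 34 lay within 1.5-fold of no change. In bulk libraries fewer expressing cells and less RNA per cell cannot be told apart.

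HMGCS1 (ENSG00000112972, GRCh38 chromosome 5, 43289395 to 43313512, minus strand) encodes the cytosolic synthase that makes HMG-CoA. It had 287, 305 and 298 CPM in the A549 VGF libraries, against 232.5, 240.2 and 221 CPM in the A549 empty vector libraries. The groups did not overlap, and every VGF library stood above every empty vector library. The log2 fold change was 0.36 (SE 0.0520, adjusted p = 0.00912). Leaving out A549 VGF library 2 gave 0.34 (adjusted p = 0.0331). The call was kept in all 22 alternatives run, with adjusted p up to 0.0402. An opposite-strand transcript, AC114947.2, overlaps 14.95% of the exonic bases of HMGCS1, and whether counting used strand is not given in the sources used here.

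Among the 18 mevalonate and sterol enzymes, HMGCS1 was the 1 called higher and none was called lower. The log2 fold changes of 11 of the 18 were positive and their median was 0.02, beside 49.25% positive and a median of 0 over all features tested. Without A549 VGF library 2, 10 of the 18 were positive and the median was again 0.02. FDPS, which makes farnesyl diphosphate, had 129.7, 130.4 and 130.0 CPM with VGF, against 126, 119.8 and 119.5 CPM with empty vector (log2 fold change 0.09, adjusted p = 0.467). ACAT2, the cytosolic thiolase that opens the route by joining acetyl-CoA units, had 59.6, 61.0 and 60.75 CPM with VGF, against 53.9, 55.75 and 56.5 CPM with empty vector (0.13, adjusted p = 0.327). In these 3 genes (HMGCS1, FDPS and ACAT2) the VGF libraries all stood above the empty vector libraries, and in none of the 18 did they all stand below. Such separation upwards was seen in 9.28% of all features, and downwards in 9.08%. DHCR7, a late reductase of the route, had the lowest log2 fold change of the group, -0.13 (adjusted p = 0.447).

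**Figure D1:**
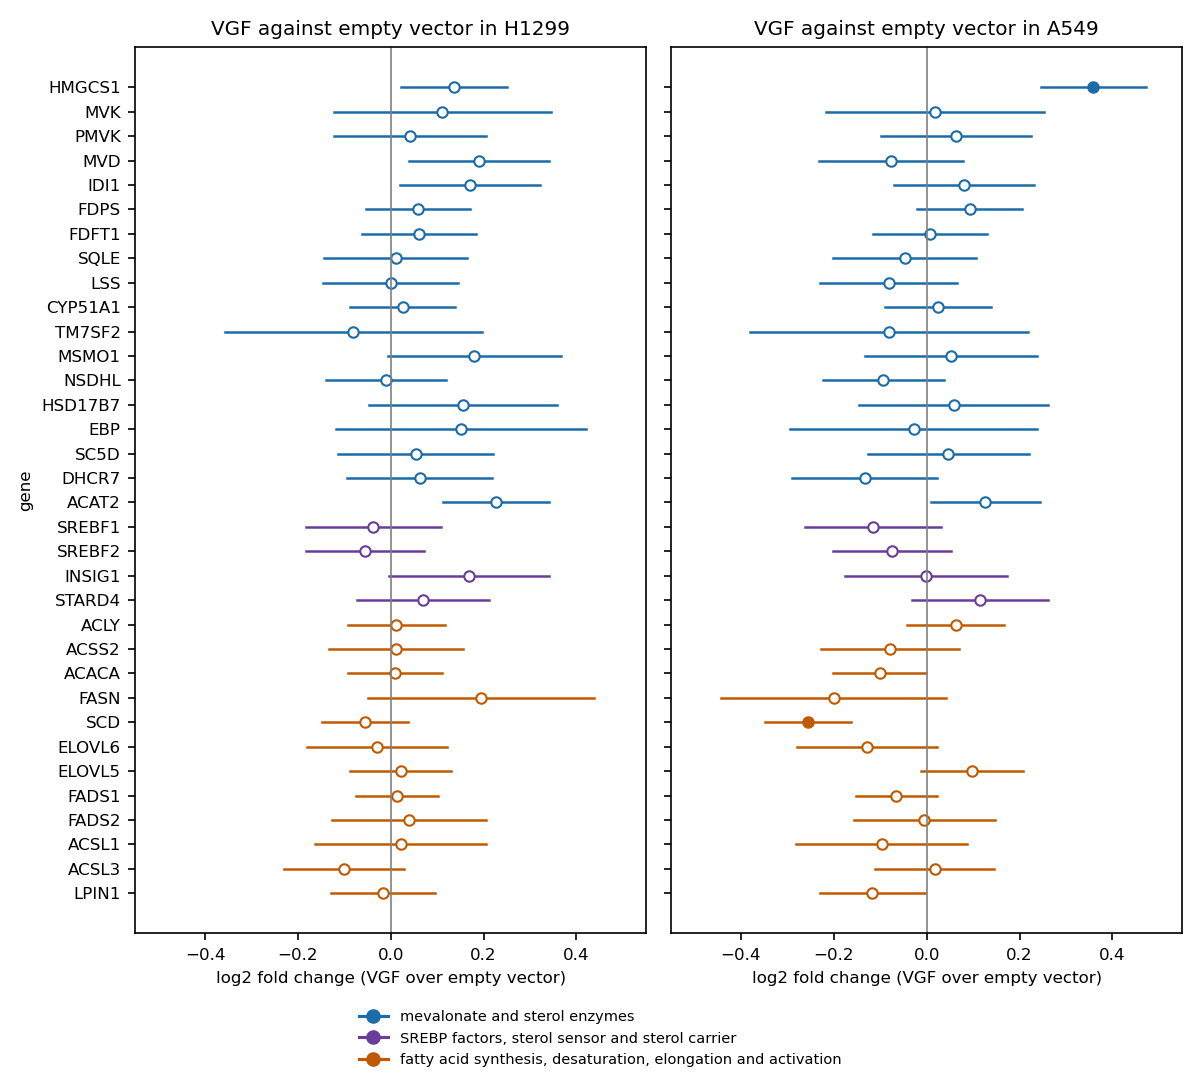
Log2 fold changes of the 34 genes with VGF over empty vector, in H1299 (left) and A549 (right), with 95% confidence intervals as bars. Filled points passed the test at an adjusted p under 0.05: HMGCS1 (0.36) and SCD (-0.26) in A549, and none in H1299.

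The SREBP genes did not pass the test in A549. SREBF1, which encodes the factor that acts mainly on fatty acid genes, had 288, 271 and 295 CPM with VGF, against 324, 322 and 280.1 CPM with empty vector. SREBF2, which encodes the factor that acts mainly on cholesterol genes, had 204, 195 and 212.5 CPM with VGF, against 222, 221 and 201 CPM with empty vector. INSIG1, the sterol-regulated retention protein, had 80.4, 91.7 and 82.9 CPM with VGF, against 88.4, 86.9 and 80.3 CPM with empty vector. The groups overlapped for all of these genes, with log2 fold changes of -0.12 for SREBF1 (adjusted p = 0.485), -0.08 for SREBF2 (adjusted p = 0.649) and -0.0024 for INSIG1 (adjusted p = 1). Without A549 VGF library 2 these were -0.08, -0.05 and -0.06. STARD4, a soluble sterol carrier, was the 1 of the 4 with a positive value, 0.11 (adjusted p = 0.493).

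SCD (ENSG00000099194, chromosome 10, 100347124 to 100364834, plus strand) encodes the desaturase that turns stearoyl-CoA and palmitoyl-CoA into monounsaturated forms. It had 2154, 2172 and 2336 CPM in the A549 VGF libraries, against 2747, 2616 and 2589 CPM in the A549 empty vector libraries. Every VGF library stood below every empty vector library. The log2 fold change was -0.26 (SE 0.0427, adjusted p = 0.0198). Leaving out A549 VGF library 2 gave -0.24 (adjusted p = 0.0470). The call was lost without A549 empty vector library 1 (-0.23, adjusted p = 0.0818), and also when A549 VGF library 1 was left out (-0.23, adjusted p = 0.0569). It was lost as well with the replicate number as a block (adjusted p = 0.057).

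In the fatty acid group, SCD was the 1 of 12 called lower and none was called higher. The values of 3 of the 12 were positive, and the median was -0.09, beside 49.25% positive and a median of 0 over all features. Without A549 VGF library 2, 4 of 12 were positive and the median was -0.07, with FADS2 at 0.05. FASN, the fatty acid synthase, had 897, 835.5 and 1018 CPM with VGF, against 1131, 1101 and 927.5 CPM with empty vector. Its groups overlapped, and its log2 fold change was -0.20 (adjusted p = 0.463), or -0.14 without A549 VGF library 2 (adjusted p = 0.782). ELOVL6, the elongase that acts on palmitoyl-CoA, had 53.3, 57.9 and 58.4 CPM with VGF, against 60.5, 59.9 and 64.9 CPM with empty vector (-0.13, adjusted p = 0.451). SCD and ELOVL6 were the 2 genes of the 12 whose VGF libraries all stood below, beside 9.08% of all features. None stood wholly above, beside 9.28%. ACACA, which makes malonyl-CoA, and LPIN1, a phosphatidate phosphatase, had unadjusted p of 0.0489 and 0.0433 and log2 fold changes of -0.10 and -0.12. Over the whole list 5 of 34 genes (14.7%) had an unadjusted p under 0.05 in A549, beside 13.9% of all features. FADS1 and FADS2, the delta-5 and delta-6 desaturases of polyunsaturated fatty acids, had -0.07 and -0.0048 (adjusted p = 0.523 and 1).

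In H1299, none of the 34 genes passed the same test. Only 2 of 18228 features did (0.011%), 1 higher (0.00549%), which was VGF, and 1 lower (0.00549%). At an unadjusted p under 0.05 there were 4 of the 34 (11.8%), beside 7.8% of all features. All were sterol enzymes with positive values, HMGCS1, MVD, IDI1 and ACAT2, and 3.13% of all features were positive at that threshold. DESeq2 called ACAT2 (adjusted p = 0.0073), and limma voom called 0 of the 34. The 95% confidence intervals of all 34 again lay within 1.5-fold of no change, with half-widths of 0.0881 to 0.277 on the log2 scale. At this precision, changes of a few percent were not detectable, and larger ones could also go uncalled. ACAT2, at 1.17-fold higher, had an adjusted p of 0.229.

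ACAT2 (ENSG00000120437, chromosome 6, 159760328 to 159779055, plus strand) had 137, 137 and 132.5 CPM in the H1299 VGF libraries, against 119, 122 and 106 CPM in the H1299 empty vector libraries. The groups did not overlap. The log2 fold change was 0.23 (SE 0.0526, adjusted p = 0.229), and the adjusted p ran from 0.0073 to 0.506 over 22 alternatives. Opposite-strand genes, SOD2 and TCP1 among them, overlap 52.27% of its exonic bases, so its counts may include reads of those genes if counting ignored strand. MVD, the decarboxylase that makes isopentenyl diphosphate, had 67.1, 72.8 and 74.7 CPM with VGF, against 64.5, 66.0 and 57.6 CPM with empty vector (0.19, SE 0.06955, adjusted p = 0.525). HMGCS1 had 119, 123 and 112 CPM with VGF, against 114, 104 and 105 CPM with empty vector, so that 1 VGF library lay within the range of the empty vector libraries (0.14, adjusted p = 0.568). ACAT2, MVD and HSD17B7, a sterol ketoreductase, were the 3 of 34 genes whose VGF libraries all stood above, beside 5.65% of all features, and none stood wholly below, beside 7.07%.

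The log2 fold changes of 15 of the 18 sterol enzymes were positive in H1299, with a median of 0.06, beside 45.4% positive and a median of -0.0055 over all features. This rested in part on single libraries. The median of the 18 enzymes, as log2 CPM relative to the empty vector mean, was 0.16 in H1299 VGF library 2 and 0.0167 and 0.0342 in the other VGF libraries, and -0.0652 in H1299 empty vector library 3 against 0.0311 and 0.0454 in the other empty vector libraries. Without H1299 VGF library 2, 13 of 18 were positive with a median of 0.02, and without H1299 empty vector library 3, 13 of 18 with a median of 0.04. Leaving out the other H1299 libraries raised the median. It was 0.075 and 0.097 without empty vector libraries 1 and 2 (16 and 17 of 18 positive). Without VGF libraries 1 and 3 it was 0.107 and 0.0895 (14 and 15 of 18). EBP, the sterol isomerase, had 36.3 CPM in H1299 VGF library 2 and 25.8 and 26.5 CPM in the other VGF libraries, against 26.6, 27.9 and 25.3 CPM with empty vector. The regulators and the fatty acid genes had medians of 0.02 and 0.01, and no gene of either group had an unadjusted p under 0.05. FASN had 994, 1171 and 1280.0 CPM with VGF, against 1069, 1077 and 865 CPM with empty vector (0.19, adjusted p = 0.748). SCD had 3898, 3864 and 4219 CPM with VGF, against 4201, 4178 and 4073 CPM with empty vector (-0.06, adjusted p = 0.866).

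**Figure D2:**
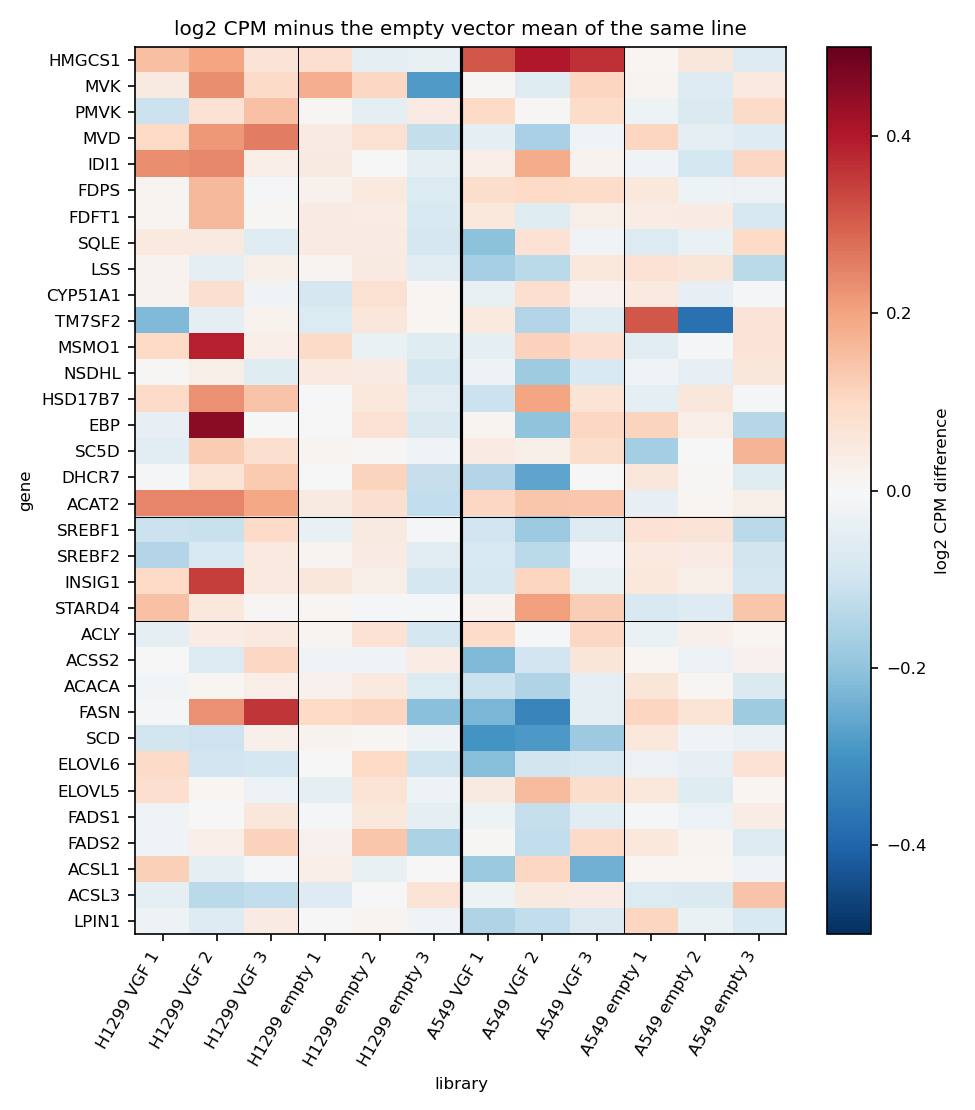
Log2 CPM of the 34 genes in each of the 12 libraries, minus the mean of the empty vector libraries of the same line, by gene role (horizontal lines) and group (vertical lines). HMGCS1 is high in the 3 A549 VGF libraries and SCD is low in them, while the sterol enzymes are high mainly in H1299 VGF library 2 (median 0.16).

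The design also asks whether VGF acted differently in the lines. The effect in H1299 minus that in A549 passed the test for 29 of 18228 features (0.159%), 16 with a higher value in H1299 (0.0878%) and 13 with a lower one (0.0713%), and for 0 of the 34 genes. At an unadjusted p under 0.05 there were 4 of the 34 (11.8%), beside 11.2% of all features. SCD had a difference of 0.20 (SE 0.0604, adjusted p = 0.268), with adjusted p of 0.0443 to 0.454 over 21 alternatives, the lowest from DESeq2. HMGCS1 had a difference of -0.22 (SE 0.0738, adjusted p = 0.299). MVD and FASN had differences of 0.27 (adjusted p = 0.359) and 0.40 (adjusted p = 0.39). DESeq2 called SCD alone and limma voom called 0 of the 34. The calls of HMGCS1 and SCD in A549 are thus not shown to be particular to A549.

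**Figure D3:**
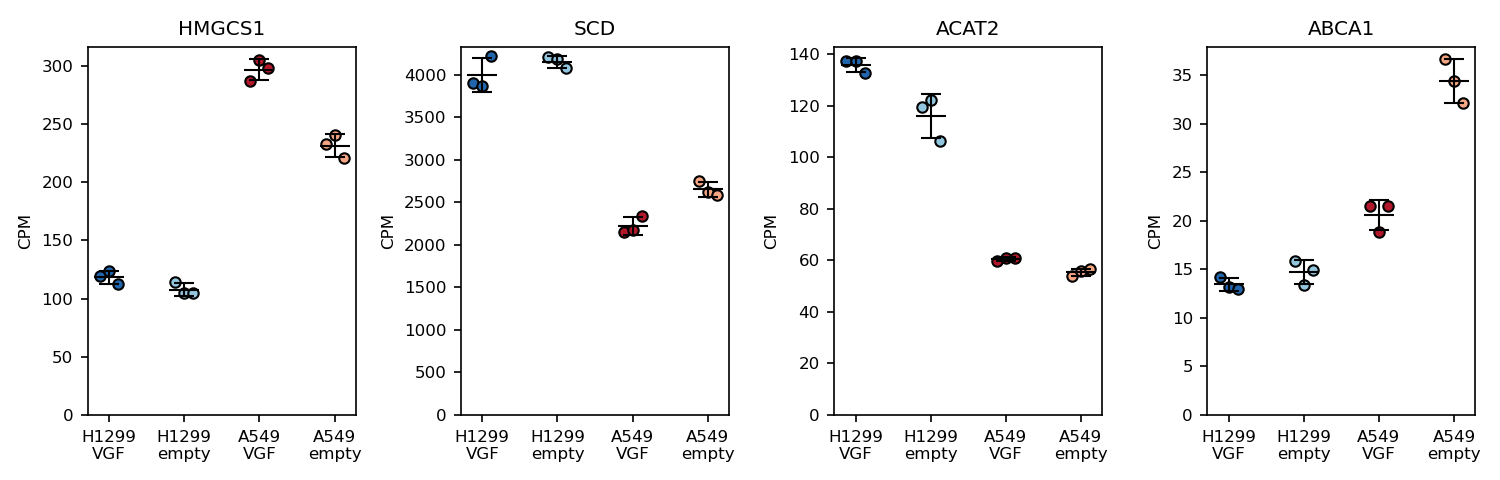
CPM of HMGCS1, SCD, ACAT2 and ABCA1 in every library, with the mean and SD of each group of 3. HMGCS1 and ABCA1 differ between the A549 groups without overlap (287 to 305 against 221 to 240.2 CPM for HMGCS1), and SCD is higher in all H1299 libraries than in any A549 library.

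Of the genes around these routes, 87 were listed in 5 groups and 86 of them were tested. The shares of all features called for VGF were 0.79% in A549 and 0.011% in H1299. ABCA1, the exporter that loads cholesterol onto apolipoproteins, was the 1 gene of the 86 called for VGF in either line, and it fell in A549. It had 21.5, 18.9 and 21.5 CPM in the A549 VGF libraries, against 36.7, 34.4 and 32.1 CPM in the A549 empty vector libraries. The groups did not overlap, and the log2 fold change was -0.74 (SE 0.0895, adjusted p = 0.00229). Leaving out A549 VGF library 2 gave -0.68 (adjusted p = 0.00952), and the call was kept in all 22 alternatives run, with adjusted p up to 0.0279. In H1299 it had 14.2, 13.2 and 13.0 CPM with VGF, against 15.9, 13.4 and 14.9 CPM with empty vector (-0.13, adjusted p = 0.83). The difference between the lines was 0.61 (adjusted p = 0.0945).

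None of the 10 genes of SREBP transport, cleavage and turnover was called for VGF in either line; the smallest adjusted p was 0.0561 in A549, for RNF145, an INSIG-linked ubiquitin ligase (-0.21), and 0.887 in H1299. None of the 10 genes of the isoprenoid and dolichol branch was called (smallest adjusted p 0.125 in A549 and 0.632 in H1299). The same held for 28 further genes of fatty acid and lipid synthesis (0.149 and 0.148) and for 24 genes of fatty acid oxidation (0.124 and 0.609). At an unadjusted p under 0.05 there were, in that order, 1, 2, 7 and 3 genes in A549 and 0, 1, 1 and 2 in H1299, where the shares over all features were 13.9% in A549 and 7.8% in H1299.

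Levels between genes were compared in the deposited FPKM, which are scaled by gene length. SCD had the highest level of the 34 in all 4 groups, with 751 ± 26.2 FPKM in H1299 with VGF, 784 ± 10.97 in H1299 with empty vector, 362 ± 13.7 in A549 with VGF and 435 ± 13.4 in A549 with empty vector (SD, n = 3 each). It made up 33.3% and 35.1% of the summed FPKM of the 34 genes in H1299 with VGF and with empty vector, and 18.8% and 21.7% in A549 with VGF and with empty vector. The sum over the 34 genes was 2259 ± 32.3 and 2237 ± 61.2 FPKM in H1299 with VGF and with empty vector, and 1924 ± 49.2 and 2009 ± 35.25 FPKM in A549 with VGF and with empty vector.

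After SCD the order differed between the lines. In H1299, FDPS, FDFT1 (squalene synthase) and FASN followed in both groups; with empty vector they had 174 ± 7.38, 133 ± 9.46 and 119 ± 13.5 FPKM and their libraries stood apart, though the lowest FDFT1 library (127.6 FPKM) lay just above the highest FASN library (127.0). With VGF, FDFT1 and FASN overlapped. In A549, FADS2, ACLY (the citrate lyase that supplies cytosolic acetyl-CoA) and FADS1 followed; with empty vector they had 204 ± 9.335, 194 ± 4.35 and 127 ± 3.998 FPKM. FADS2 and ACLY overlapped there and changed places with VGF (199.8 ± 13.2 and 201 ± 8.42 FPKM). The lowest levels were those of ACSL1, an acyl-CoA synthetase, in H1299 (7.10 ± 0.458 FPKM with VGF and 6.997 ± 0.2535 with empty vector) and of TM7SF2, a sterol C14 reductase, in A549 (6.46 ± 0.402 with VGF and 6.93 ± 1.74 with empty vector).

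**Figure D4:**
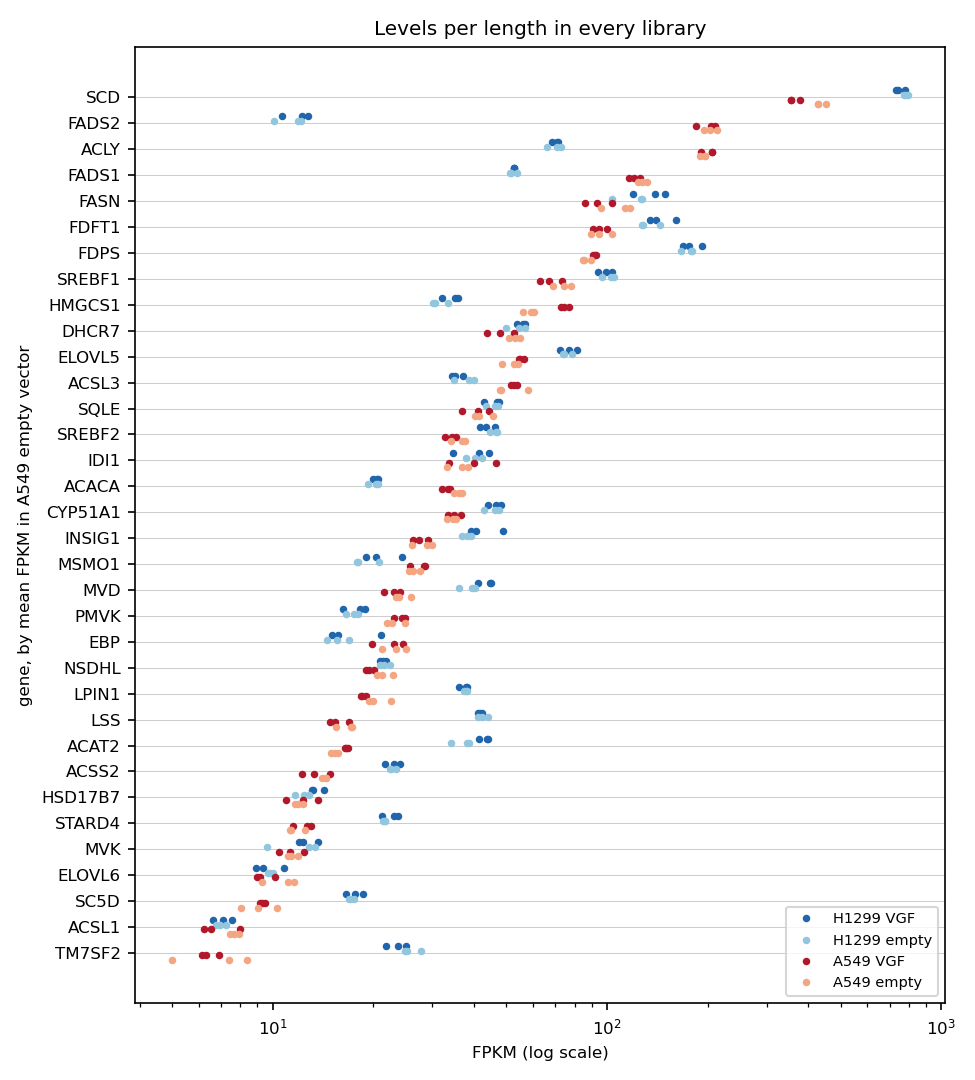
FPKM of the 34 genes in every library on a log axis, ordered by their mean in A549 with empty vector, with each group in its own colour. SCD is highest in all 4 groups, and FADS2 is the gene whose H1299 and A549 libraries lie farthest apart (10.1 to 12.7 FPKM in H1299 and 185 to 213 FPKM in A549).

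Related genes were not expressed in fixed proportion across the lines. The FPKM ratio of FADS2 over FADS1 was 0.226 ± 0.0204 and 0.217 ± 0.0187 in H1299 with VGF and with empty vector, against 1.65 ± 0.0773 and 1.60 ± 0.109 in A549 with VGF and with empty vector. The polyunsaturated desaturases thus stood in opposite order of level in the lines. ACSL3, an acyl-CoA synthetase of lipid droplets, exceeded ACSL1 by 5.01 ± 0.232 and 5.41 ± 0.536 times in H1299 and by 7.68 ± 0.816 and 6.70 ± 0.934 times in A549, in the same order of groups. ELOVL5, which elongates polyunsaturated fatty acids, stood above ELOVL6 in every library, with ELOVL6 over ELOVL5 at 0.126 ± 0.00879 and 0.130 ± 0.00491 in H1299, and 0.171 ± 0.0137 and 0.205 ± 0.0120 in A549. SREBF2 over SREBF1 was closest between the lines, at 0.444 ± 0.0219 and 0.456 ± 0.0244 in H1299, and 0.504 ± 0.0318 and 0.491 ± 0.00752 in A549. These ratios are descriptions without a test.

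H1299 differed from A549 in most of these genes, as in most features. With empty vector, 16 of the 34 were called higher in H1299 and 14 lower, while 38.5% of all features were called higher and 38.6% lower. The share called in either direction was 88.2% of the 34 and 77.2% of all features. With VGF, in other libraries, 17 were called higher and 9 lower, with backgrounds of 38.2% and 39.1% (77.3% in either direction, and 76.5% of the 34). All 16 genes higher with empty vector were also among the 17 higher with VGF, and the 9 lower with VGF were all among the 14 lower with empty vector. The libraries of the lines stood wholly apart for 16 genes upwards and 15 downwards with empty vector (40.7% and 40.3% of all features), and for 16 and 9 with VGF (39.5% and 40.1%). The median log2 difference of the 34 with empty vector was -0.09, beside 0.0061 over all features. Scaling moved the median of all features by more than 0.1, to 0.11 with upper-quartile factors and 0.12 on log2(FPKM + 1). With these, the split of the 34 with empty vector became 16 higher and 10 lower (upper quartile) and 16 and 9 (FPKM). IDI1, NSDHL and DHCR7 turned positive on the FPKM scale.

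**Figure D5:**
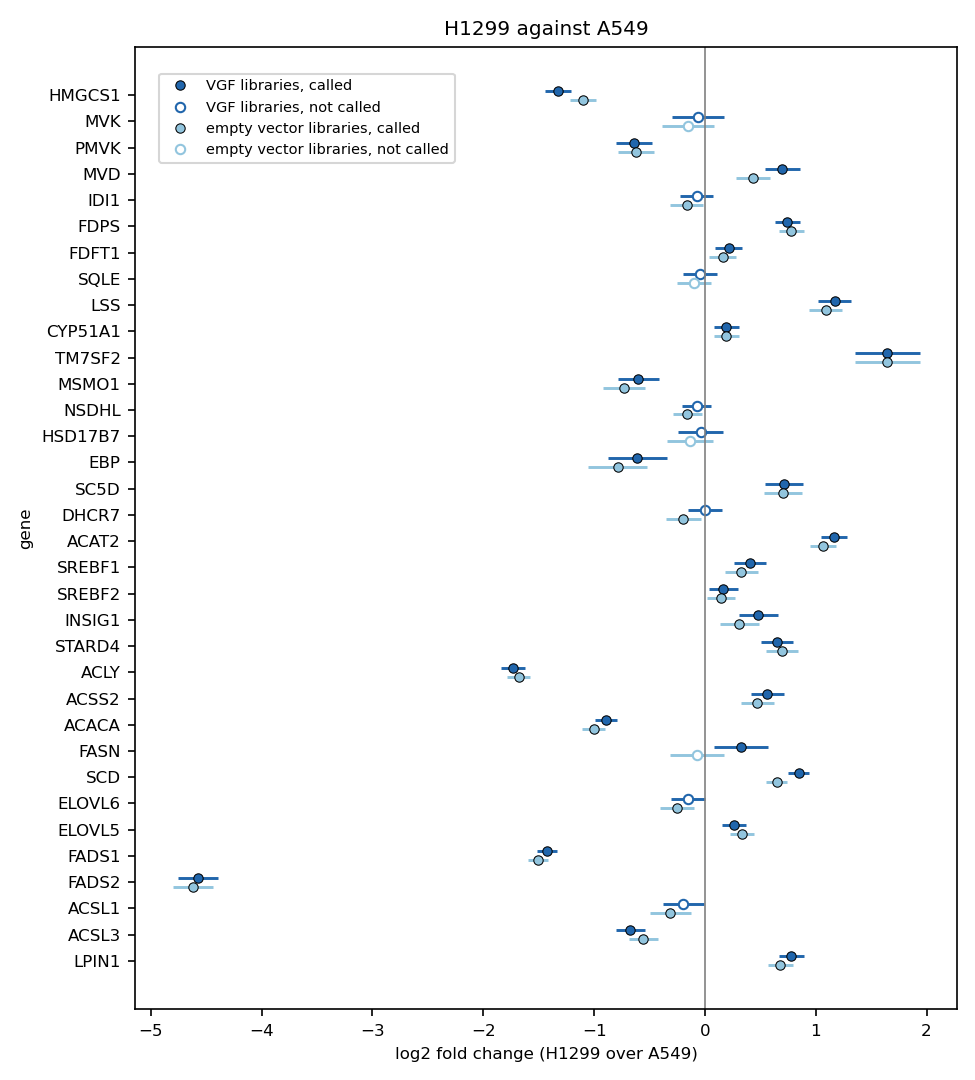
Log2 fold changes of H1299 over A549 for the 34 genes, in the VGF libraries (dark blue, upper) and the empty vector libraries (light blue, lower), with 95% confidence intervals. FADS2 (-4.58 and -4.62), ACLY (-1.73 and -1.68) and FADS1 (-1.43 and -1.51) lie lowest, and TM7SF2 (1.644 and 1.645) lies highest.

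Among the 18 sterol enzymes, 8 were higher and 7 lower in H1299 with empty vector, beside 38.5% and 38.6% of all features. TM7SF2 had 37.3, 40.6 and 39.3 CPM in H1299, against 15.2, 9.47 and 12.8 CPM in A549, which is 3.13-fold higher (adjusted p = 1.23e-07). LSS, the cyclase that forms lanosterol, had 195, 199 and 185 CPM in H1299, against 95.1, 94.3 and 82.4 CPM in A549, which is 2.13-fold higher (adjusted p = 8.11e-09). Neither gene overlapped between the lines. ACAT2 was 2.09-fold higher (119, 122 and 106 CPM in H1299, against 53.9, 55.75 and 56.5 CPM in A549, adjusted p = 9.65e-10). FDPS was 1.72-fold higher (212.5, 216 and 199 CPM in H1299, against 126, 119.8 and 119.5 CPM in A549, adjusted p = 1.6e-08). HMGCS1, which acts early in the route, was 2.15-fold lower, with 114, 104 and 105 CPM in H1299, against 232.5, 240.2 and 221 CPM in A549 (adjusted p = 5.56e-10).

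The other sterol enzymes called in both comparisons differed by less than 2-fold. SC5D, MVD, FDFT1 and CYP51A1 were higher in H1299, by 1.63, 1.35, 1.12 and 1.14 times with empty vector. EBP, MSMO1 (the C4 demethylase) and PMVK (phosphomevalonate kinase) were lower, by 1.73, 1.66 and 1.54 times. IDI1 (the isopentenyl diphosphate isomerase), NSDHL (a C4 decarboxylating dehydrogenase) and DHCR7 were lower with empty vector (log2 -0.17, -0.16 and -0.19) and were not called with VGF. MVK (mevalonate kinase), SQLE (squalene epoxidase) and HSD17B7 were called in neither. FDPS, HSD17B7 and CYP51A1 have closely related pseudogenes, and AC000120.2 overlaps 79.35% of the exonic bases of CYP51A1 on the same strand, so how the counting assigned shared reads could move their levels.

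All 4 regulators and carriers were called higher in H1299 in both comparisons. Over all features, 38.2% were called higher with VGF and 38.5% with empty vector. SREBF1 had 360.0, 359 and 414 CPM in H1299 with VGF, against 288, 271 and 295 CPM in A549 with VGF (log2 0.41, adjusted p = 0.000101), and 378, 399.8 and 386 CPM in H1299 with empty vector, against 324, 322 and 280.1 CPM in A549 with empty vector (0.33, adjusted p = 0.000579). INSIG1 had log2 differences of 0.48 with VGF and 0.31 with empty vector (adjusted p = 0.000108 and 0.00323), and STARD4 of 0.65 and 0.70 (adjusted p = 1.14e-06 and 5.94e-07). SREBF2 differed least, at 0.17 with VGF and 0.15 with empty vector (adjusted p = 0.0191 and 0.0346). Its call with empty vector was lost without A549 empty vector library 3, H1299 empty vector library 1 or H1299 empty vector library 2 (adjusted p up to 0.143), and its call with VGF without H1299 VGF library 3 (0.0888).

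The fatty acid genes held the widest difference between the lines, that of FADS2, and their calls ran both ways. Beyond 2-fold, 4 of the 12 were lower and 0 higher in H1299 with empty vector, and 3 and 0 with VGF. Of all 18228 features, 4673 were lower and 4245 higher beyond 2-fold with empty vector, and 4774 and 4144 with VGF. FADS2 (ENSG00000134824, chromosome 11, 61792980 to 61867354, plus strand) had 30.6, 31.7 and 33.5 CPM in H1299 with VGF, against 769, 703 and 816 CPM in A549 with VGF. With empty vector it had 31.4, 34.03 and 27.7 CPM in H1299, against 793, 772.5 and 730.2 CPM in A549. It was thus 23.9-fold lower with VGF and 24.6-fold lower with empty vector (log2 -4.58 and -4.62, SE 0.0828 and 0.0829, adjusted p = 9.68e-14 and 9.49e-14). FADS1 (ENSG00000149485, chromosome 11, 61799625 to 61829318, minus strand) had 222.5, 233 and 217 CPM in H1299 with empty vector, against 632, 624 and 653 CPM in A549, which is 2.84-fold lower (adjusted p = 2.75e-12). The genes lie on opposite strands and overlap in 4.79% of the exonic bases of FADS1 and 4.44% of those of FADS2. The RefSeq starts used for the printed windows, 61816203 for FADS2 and 61817003 for FADS1, are 800 bases apart. Both lie inside the GENCODE spans given above, and any other start was not searched. At these starts the FADS2 window held no motif match and the FADS1 window held 2. Whether this bears on the line difference was not tested.

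ACLY was 3.21-fold lower, with 297.5, 310.2 and 278 CPM in H1299 with empty vector, against 924, 963 and 953 CPM in A549 (adjusted p = 4.97e-12). ACACA was 2.01-fold lower (adjusted p = 4.46e-10), and ACSL3 1.47-fold lower, with 183, 191 and 201 CPM in H1299 and 267.5, 267 and 309.7 CPM in A549 (adjusted p = 1.77e-06). SCD went the other way: it had 4201, 4178 and 4073 CPM in H1299 with empty vector, against 2747, 2616 and 2589 CPM in A549, which is 1.57-fold higher (adjusted p = 1.45e-08), and it was 1.80-fold higher with VGF (adjusted p = 9.89e-10). LPIN1 was 1.60-fold higher, ACSS2, which activates acetate, 1.39-fold higher and ELOVL5 1.26-fold higher with empty vector, and all 3 were also higher with VGF. ELOVL5 had 197, 214 and 200.2 CPM in H1299 with empty vector, against 167, 155 and 162 CPM in A549.

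ELOVL6 and ACSL1 were called lower in H1299 with empty vector only. ELOVL6 had 51.8, 55.45 and 48.4 CPM in H1299, against 60.5, 59.9 and 64.9 CPM in A549 (log2 -0.25, adjusted p = 0.00499), and its log2 difference with VGF was -0.15 (adjusted p = 0.0598). ACSL1 had 26.55, 25.3 and 26.0 CPM in H1299, against 32.4, 32.5 and 31.7 CPM in A549 (-0.31, adjusted p = 0.00464), and its log2 difference with VGF was -0.19 (adjusted p = 0.0536). On log2(FPKM + 1) neither was called with empty vector, and with VGF both turned slightly positive. FASN was called with VGF only, with 994, 1171 and 1280.0 CPM in H1299, against 897, 835.5 and 1018 CPM in A549 (0.33, adjusted p = 0.0179). Its groups overlapped, and without H1299 VGF library 3 the call was lost (adjusted p = 0.0848). With empty vector its log2 difference was -0.07 (adjusted p = 0.579).

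Around these routes the lines also differed with empty vector in both directions, as all features did (38.5% called higher and 38.6% lower). Of the 10 genes of SREBP transport, cleavage and turnover, 5 were higher and 5 lower in H1299. The lower ones included MBTPS2, the protease that makes the second cut of SREBP precursors (40.8 ± 1.03 CPM in H1299 and 112 ± 6.01 CPM in A549) and RNF145 (86.6 ± 1.76 CPM in H1299 and 233 ± 11.4 CPM in A549). The higher ones included FAF2, SPRING1 and MBTPS1, with log2 differences of 0.32, 0.35 and 0.21. Of the 10 isoprenoid and dolichol genes, 4 were higher and 4 lower, RABGGTB, a subunit of Rab geranylgeranyl transferase, being 2.03-fold higher and GGPS1, which makes geranylgeranyl diphosphate, 1.98-fold lower.

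Of the 14 genes of cholesterol efflux, uptake, transport and ester storage, 4 were higher and 9 lower in H1299. For this and the next lists, the shares over all features were again 38.5% higher and 38.6% lower. APOE, an apolipoprotein, had 46.8 ± 4.23 CPM in H1299 and 0.605 ± 0.186 CPM in A549 (adjusted p = 2.67e-11). NPC2 and VLDLR were 2.11-fold and 2.00-fold higher. ABCG1, a sterol exporter, had 0 counts in the H1299 empty vector libraries and 24.3 ± 2.90 CPM in A549, at least 1055-fold lower against a floor of 3 counts over the group. LRP8 and NR1H2 were 2.57-fold and 2.23-fold lower. Of the 28 tested genes of further fatty acid and lipid synthesis, 10 were higher and 14 lower. ME1, the malic enzyme that supplies NADPH, had 16.7 ± 1.54 CPM in H1299 and 194 ± 4.10 CPM in A549 (adjusted p = 5.72e-12), and DGAT2, which makes triacylglycerol, had 17.8 ± 0.786 and 1.68 ± 0.319 CPM (adjusted p = 9.37e-10). Of the 24 oxidation genes, 9 were higher, with DECR1 2.57-fold, and 12 lower, with ETFA 2.87-fold.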

How the data were processed

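Messenger RNA, captured on beads per the labels' protocols, was sequenced in 12 libraries. The deposited count table holds unscaled whole-number counts for 26535 features, and the FPKM table deposited by the authors holds the same features per length and library size. GRCh38 and DESeq2 are named in the submitters' processing notes; the aligner, counter, annotation and any use of strand were not given in the sources used here. Both tables also held 18 lines of stray text, which were left out. Totals were 31378171 to 41919484 counts, and replicates of a group had a median SD of 0.078 to 0.0896 on the log2 CPM scale. No replicate pair agreed within sampling noise (chi-square per degree of freedom from 7.82 to 21.8).

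Counts were tested with edgeR 4.0.16 (R 4.3.3), by the quasi-likelihood F test with TMM scaling, filterByExpr and Benjamini-Hochberg adjustment over 18228 features, in 1 fit of the 4 group means with 8 residual degrees of freedom; calls were made at an adjusted p under 0.05. Adjusted p values are those of edgeR except where the text says otherwise. Standard errors come from the F statistic. CPM are counts scaled by the library total times its TMM factor, 0.919 to 0.940 in A549 and 1.06 to 1.09 in H1299. Floors for genes with 0 counts cover counting error only. Coordinates are those of GENCODE release 29 on GRCh38, and promoter windows those of RefSeq. The test was run on simulated counts with known changes before use. DESeq2 1.42.0, limma 3.58.1, other scalings and filters, FPKM with pseudocounts of 1 and 0.1, the replicate number as a block, and each library left out were the alternatives.

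The genes and lists were chosen with earlier results of these data known. Values of every library are given for genes called for VGF, the 2 genes of smallest p in each VGF contrast, the 4 highest and 4 lowest called between the lines, SREBF1, SREBF2, INSIG1 and the paralog pairs; FASN, ELOVL6, FDPS, EBP and RNF145 in the VGF comparisons were added after their values were seen. Of the other lists, up to 3 called genes per direction were eligible, by smallest p, and some results are not reported here.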

Additional observations from a re-analysis of the deposited data

How the results depend on the processing

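The call of HMGCS1 in A549 was kept under all 22 alternatives, and that of SCD under all but 3: the replicate block (adjusted p = 0.057) and 2 left-out libraries named above. Over all features, VGF calls in A549 numbered 144, against 710 with DESeq2, 334 with limma voom, 43 with the block and 52 to 130 with 1 library left out; on log2(FPKM + 1) the split was 81 higher and 127 lower. In H1299 there were 2, against 133 with DESeq2, 1 with limma voom, 5 without a filter, 4 on log2(FPKM + 1), 4 with the compared groups alone, 1 with the block and 1 to 4 with 1 library left out. For the difference between lines there were 29, against 315 with DESeq2, 19 with limma voom, 2 with the block and 18 to 36 with 1 library left out.

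Of the 34 genes, those called lower in A549 numbered 0 with the block and 0 to 1 with 1 library left out. DESeq2 called 1 higher in H1299 (ACAT2) and 1 in the difference (SCD). Between the lines with empty vector, 9 were lower on log2(FPKM + 1) and 9 on log2(FPKM + 0.1). With VGF, ACSL1 turned to 0.037 on log2(FPKM + 1) and 0.043 on log2(FPKM + 0.1), and ELOVL6 to 0.031 and 0.034. Leaving out 1 library lost the calls with empty vector of IDI1 (10 of 12 libraries), DHCR7 (4), FDFT1 (3), SREBF2 (3) and NSDHL (2). The cause of these shifts was not tested. Same-numbered libraries did not deviate together (correlations -0.134 to 0.105), so the replicate numbers were not treated as pairing; the block changed no call of the 34 for VGF other than that of SCD. For single genes and list medians, 883 further values kept their direction and side of the threshold or moved by less than the replicate SD, 10 medians moved further, and 24 gained or lost a call. With 3 libraries a group, log2 changes of about 0.15 lay at the edge of a typical 95% interval (median half-width 0.148 in A549 and 0.145 in H1299).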

Other observations

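The neighbours of FADS2 and FADS1 on chromosome 11 were chosen for a look after the FADS2 values were seen. Of the annotated genes within 100000 bases of them that passed the filter, most were called lower in H1299 with empty vector. Over all features, 38.6% were called lower in that comparison. Whether the region as a whole differs between the lines was not tested. MYRF, which encodes a membrane-bound transcription factor, had 5.86 ± 1.52 CPM in H1299 and 292 ± 9.81 CPM in A549 (SD, n = 3 each), a log2 difference of -5.64 (adjusted p = 1.54e-12). FADS3, a relative of both desaturases, had 5.62 ± 0.758 CPM in H1299 and 37.5 ± 1.63 CPM in A549 (-2.74, adjusted p = 4.36e-11). FTH1, the ferritin heavy chain, had 250.2 ± 28.5 CPM in H1299 and 2632 ± 499 CPM in A549 (-3.40, adjusted p = 7.82e-11). RAB3IL1 and BEST1 had log2 differences of -2.63 and -3.39, and DAGLA and FEN1 of -0.87 and -0.64, all called lower. TMEM258, which overlaps MYRF on the opposite strand, had 23.4 ± 1.44 CPM in H1299 and 20.9 ± 1.33 CPM in A549 (0.16, adjusted p = 0.218). The order from the lowest value was MYRF, FADS2, FTH1, BEST1, FADS3, RAB3IL1, FADS1, DAGLA, FEN1 and TMEM258. Values in the VGF libraries ran the same way for the 9 lower genes, with MYRF at -5.79 and FADS3 at -2.55, while TMEM258 was called higher there (0.31, adjusted p = 0.0283).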
